A study of Homo sapiens with 6 samples.

Results

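The BCL2 family sets whether a cell survives or dies by the mitochondrial route of apoptosis, and 10 of its genes were examined in OVCAR3 cells after NUF2 knockdown. The genes were the rows of the deposited table named BCL2, BCL2L1, MCL1, BCL2A1, BAX, BAK1, BID, BCL2L11, PMAIP1 and BBC3, so that all 10 of the 10 listed genes were found among the 19973 genes of the table. OVCAR3 is an established human ovarian cancer cell line. The cells received either a control hairpin (shNC, genotype given as WT) or a hairpin against NUF2 (shNUF2, genotype given as NUF2 knockdown), and both kinds of cells were selected with puromycin to give stable lines. RNA was sequenced in 3 libraries per group. The knockdown group rests on 1 hairpin, and the sources used here do not say whether the libraries of a group came from separate cultures, so that the p-values measure only the spread between libraries, which may be technical.

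In healthy cells, the survival proteins BCL2, BCL-XL (encoded by BCL2L1), MCL1 and BFL1 (encoded by BCL2A1) hold the pore-forming effectors BAX and BAK1 in check at the mitochondrial outer membrane. The BH3-only proteins BID, BIM (BCL2L11), NOXA (PMAIP1) and PUMA (BBC3) sense damage or stress, bind the survival proteins or the effectors, and so promote release of cytochrome c and activation of caspases. NOXA binds MCL1 and BFL1 in preference to the other survival proteins, and MCL1 is a short-lived protein on which many carcinoma cells depend. What follows are transcript levels, and several of these proteins are also controlled by degradation and cleavage.

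The libraries held 13057534 to 16995452 counted reads. Reads of NUF2 itself numbered 903, 1096 and 1092 with shNC against 281, 290 and 384 with shNUF2, a log2 fold change of -1.51 (standard error 0.08, edgeR's quasi-likelihood test, Benjamini-Hochberg adjusted p = 2.17e-15). Of 10 markers of ovarian carcinoma epithelium, KRT7, KRT8, KRT18 and MSLN had 34.6 FPKM or more in every shNC library, PAX8 and MUC16 had 1.04 to 1.50 FPKM and EPCAM 1.15 to 1.75, whereas WT1 had at most 1 read, KRT19 at most 7 reads and CDH1 at most 33 reads in any shNC library. Several defining markers of this epithelium were thus near 0 or low, which goes against the label in part. The cells are called OVCAR3 here as the labels call them, and the identity of the line was not tested. Of the 8 of these markers that were tested, 4 rose and 3 fell with shNUF2 at an adjusted p under 0.05 in edgeR's test. At this threshold, 33.9% of all genes tested rose and 33.8% fell. FPKM is the read count scaled to the length of the gene and to the counted reads of the library. In RNA from a whole culture, a lower level in all cells and the loss of some expressing cells cannot be told apart.

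With shNUF2, 6 of the 10 genes rose and 1 fell at an adjusted p under 0.05, against 67.6% of all 12874 genes tested that changed in either direction at this threshold (33.9% higher and 33.8% lower). The risen genes were the survival genes MCL1, BCL2L1 and BCL2A1, the effector BAK1 and the BH3-only genes PMAIP1 and BBC3. BCL2 was the 1 gene that fell, and BAX, BID and BCL2L11 did not pass. The median log2 fold change of the 10 genes was 0.495, and that of all genes tested was -0.013. The study's methods give a fold change above 1 or below -1 with a p under 0.05. This was read here as a log2 fold change with an unadjusted p. With these thresholds in edgeR's test, only BCL2A1 (1 of the 10) was called, against 13.6% of all genes tested (9.41% higher and 4.16% lower). Every shNUF2 library lay on 1 side of every shNC library for 6 of the 10 genes, 5 higher and 1 lower, and for 70.6% of all genes tested, 35.2% higher and 35.4% lower. The share of called genes was thus close to that of the table as a whole at the first threshold and on the measure of overlap.

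**Figure D1:**
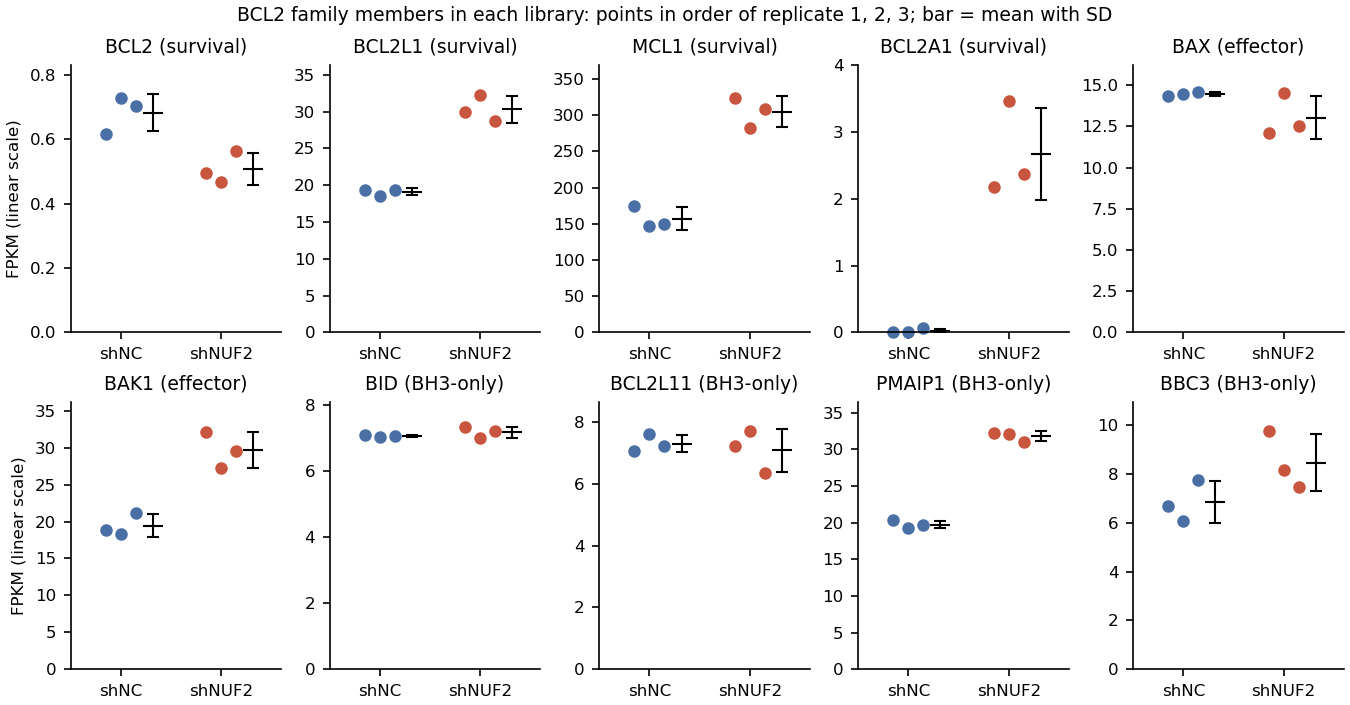
FPKM of the 10 BCL2 family genes (vertical axes, linear scale from 0, different in each panel) in the 3 shNC and 3 shNUF2 libraries, with the mean and SD of each group beside the points. MCL1 lies between 147 and 175 with shNC and between 282 and 324 with shNUF2, whereas the points of BAX, BID, BCL2L11 and BBC3 overlap between the groups.

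MCL1 (ENSG00000143384, chromosome 1 of GRCh38 from 150560895 to 150579738, minus strand) had the most reads of the family. The shNC libraries held 15375, 14337 and 15806 MCL1 reads, and the shNUF2 libraries 27830, 22917 and 29238. Every shNUF2 library was well above every shNC library. Per length, MCL1 was at 157 ± 15.6 FPKM with shNC (SD, n = 3) and 305 ± 21.3 FPKM with shNUF2 (SD, n = 3). Its log2 fold change was 0.99 (standard error 0.06, edgeR adjusted p = 2.35e-14), which is 1.99-fold and just under the threshold of 1. The estimate was 1.08 without shNC replicate 1 and 1.05 without shNUF2 replicate 2, 1.0026 and 1.0023 with DESeq2's size factors and its Wald test, and 1.02 with a stricter filter that asks for 1 CPM (counts scaled to library size) or more in each library, so that MCL1 passed the study's thresholds in these 5 settings. The deposited span of MCL1 reaches further at the 3′ end than in GENCODE release 29, where it ends at 150574551, and overlaps ADAMTSL4 on the opposite strand and an exon of ADAMTSL4-AS1 on the same strand. ADAMTSL4 had a log2 fold change of -0.01 (standard error 0.05, edgeR adjusted p = 0.883), and ADAMTSL4-AS1 was not analysed here.

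BCL2L1 (ENSG00000171552, chromosome 20 from 31664452 to 31723989, minus strand) encodes BCL-XL and, by alternative splicing, the shorter BCL-XS that promotes death, which a count per gene does not separate. It was counted 1148, 1224 and 1385 times with shNC against 1731, 1771 and 1836 times with shNUF2. The groups were clearly apart, at 19.1 ± 0.477 FPKM with shNC (SD, n = 3) and 30.3 ± 1.83 FPKM with shNUF2 (SD, n = 3). With shNUF2 it was higher by a log2 fold change of 0.70 (standard error 0.05, edgeR adjusted p = 4.37e-12). GENCODE release 29 lists 9 coding transcripts of BCL2L1 and an antisense gene, ABALON, that shares exon positions with it on the other strand.

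BCL2A1 (ENSG00000140379, chromosome 15 from 79960892 to 79971196, minus strand), best known as an NF-kB target of leukocytes, went from almost no reads to a low level. The reads numbered 0, 0 and 1 with shNC against 30, 45 and 36 with shNUF2. In FPKM these were 0, 0 and 0.0591 against 2.19, 3.46 and 2.38. Over each group this was 1 read against 111, a ratio of 127 per scaled library, with an exact (Clopper-Pearson) 95% interval of 22.3 to 5050 that covers counting error only. The edgeR estimate was 6.51 (standard error 0.67, adjusted p = 2.76e-09), and it depends on how so few control reads are handled, with 8.27 without shNC replicate 3, the library with the single read, and 1.83 with limma on log2(FPKM + 1). BCL2A1 passed the filter on low counts through the shNUF2 libraries alone.

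Markers of other cell types were examined beside BCL2A1. The leukocyte gene PTPRC had 0, 1 and 0 reads with shNC against 6, 11 and 6 with shNUF2, and the monocyte gene CD14 had 0, 3 and 1 against 10, 6 and 11. CD3E had 0 reads in every library but 1, and CD68 had 0 reads with shNUF2. Of the 14 leukocyte, endothelial and fibroblast markers, 6 were tested, 3 of these were higher, CDH5 and DCN among them, and 1 was lower (COL1A1). Among all genes tested, 33.9% were higher and 33.8% lower. CDH5 had 1, 1 and 4 reads with shNC against 15, 19 and 27 with shNUF2. Like BCL2A1, it passed the filter on low counts through the shNUF2 libraries alone. The summed FPKM of all 14 markers was 10.39 to 10.98 with shNC and 9.89 to 10.99 with shNUF2. COL1A1 made up most of this sum, and the other 13 markers together had 1.39 to 1.55 FPKM with shNC and 2.94 to 3.89 FPKM with shNUF2, and this sum was higher in each shNUF2 library than in each shNC library, as BCL2A1 was. Their part in the rise of BCL2A1 was not tested.

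The upstream sequence of BCL2A1, the gene with the largest change, is shown from 250 bases before its RefSeq start (GRCh38.p14, chr15:79971197-79971446, minus strand), with the letters TATAAA and the match to the core of the C/EBP-ATF composite in capitals.
BCL2A1: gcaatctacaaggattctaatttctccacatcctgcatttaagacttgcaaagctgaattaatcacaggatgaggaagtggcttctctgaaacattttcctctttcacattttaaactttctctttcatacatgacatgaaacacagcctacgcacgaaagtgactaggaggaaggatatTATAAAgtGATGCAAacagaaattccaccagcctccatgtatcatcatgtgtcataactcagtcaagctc
The composite core was searched as TTGCATC on both strands and occurred in 2.42% of the 27305 RefSeq promoter windows (250 bases before to 50 bases after the start), and TATAAA on the strand of the gene occurred in 7.71%. Among the 9 members with a promoter window, BCL2A1 was the 1 with the composite core, and BCL2A1 and BCL2L1 held TATAAA. The GC content of its window was 41.0%, lower than in the other 8 members, which had 48.0% to 74.7%. The GENCODE release 29 span of BCL2A1 reaches to 79971446, so that the printed bases lie inside the longest annotated span. These matches are letters in the reference and no measurement of binding.

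BCL2 (ENSG00000171791, chromosome 18 from 63123346 to 63320128, minus strand), the founding member of the family, was the gene that fell, from a low level. Its 110, 144 and 151 reads with shNC stood against 86, 77 and 108 with shNUF2. Scaled to length and library, the groups did not overlap, at 0.618, 0.727 and 0.704 FPKM against 0.494, 0.468 and 0.562 FPKM. The decrease was a log2 fold change of -0.39 (standard error 0.16, edgeR adjusted p = 0.0315). This call was lost without shNC replicate 2 (adjusted p = 0.094), shNC replicate 3 (0.0741), shNUF2 replicate 1 (0.0654) or shNUF2 replicate 2 (0.101) in edgeR's test, with DESeq2's Wald test (0.0615) and with limma on log2(FPKM + 0.1) (0.0549), while the direction was lower in each of them.

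BCL2 was also the 1 member whose longest annotated 3′ UTR held a match to the seed of the shNUF2 guide strand. The guide is printed with its seed, bases 2 to 8, in capitals, and the site in BCL2 (GENCODE release 29, chr18:63127856-63127884 of GRCh38, minus strand) with the 7 matching bases in capitals.
shNUF2 guide: aAATTGCTgaatggtaagaag
BCL2: aaaagcattttAGCAATTtatacaatatc
The match starts at base 752 of the 5279 bases of that UTR. Such a match was found in 14.2% of the 12790 genes tested that have an annotated 3′ UTR, and its part in the level of BCL2 was not tested.

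The effectors moved unequally. BAK1 (ENSG00000030110, chromosome 6 from 33572547 to 33580293, minus strand) was counted 587, 634 and 796 times with shNC against 982, 787 and 997 times with shNUF2. Its FPKM was 18.8, 18.3 and 21.2 against 32.2, 27.2 and 29.6, with every shNUF2 library above the shNC libraries. It rose by 0.65 on the log2 scale (standard error 0.07, edgeR adjusted p = 1.24e-08), or 1.57-fold. GENCODE release 29 names 2 BAK1 pseudogenes, BAK1P1 and BAK1P2, with which reads could be shared, and a pseudogene on the other strand, GGNBP1, that shares exon positions with BAK1.

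BAX (ENSG00000087088, chromosome 19 from 48954815 to 48961798, plus strand) had 523, 588 and 641 reads with shNC against 432, 490 and 492 with shNUF2. Per length these were 14.3, 14.5 and 14.6 FPKM against 12.1, 14.5 and 12.5 FPKM. The shNC libraries lay very close together, and shNUF2 replicate 2 lay among them while the other two were lower. The log2 fold change was -0.12 with a 95% interval of -0.269 to 0.038 (edgeR adjusted p = 0.197), and BAX passed the test without shNUF2 replicate 2, at -0.19 (edgeR adjusted p = 0.0478). The ratio of BAK1 to BAX FPKM was 1.31, 1.26 and 1.45 in the shNC libraries and 2.66, 1.88 and 2.37 in the shNUF2 libraries, without overlap.

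The ratio of BAX to BCL2, often used as an index of the readiness for apoptosis, was 23.2, 19.9 and 20.7 in FPKM with shNC and 24.5, 31.0 and 22.2 with shNUF2. The groups overlapped, at 21.3 ± 1.71 (SD, n = 3) and 25.9 ± 4.58 (SD, n = 3), and an exact two-sided permutation test gave p = 0.20. With 3 libraries against 3 this test cannot go below 0.10, so that it cannot show whether the ratio differed.

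The upstream sequence of BAX is shown because of its repeated motif, from 250 bases before its RefSeq start (GRCh38.p14, chr19:48954625-48954874, plus strand), with the E-box CACGTG, a site of MYC and related factors, in capitals.
BAX: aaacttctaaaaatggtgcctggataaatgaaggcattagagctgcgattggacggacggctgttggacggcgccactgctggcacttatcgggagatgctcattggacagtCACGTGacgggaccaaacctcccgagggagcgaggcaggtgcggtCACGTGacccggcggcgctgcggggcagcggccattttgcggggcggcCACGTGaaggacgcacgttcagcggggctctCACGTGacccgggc
The motif reads the same on both strands. BAX held 4 of them, and 5 of the 27305 promoter windows (0.0183%) held as many, whereas 7.43% held at least 1. The end of the printed stretch lies inside the deposited span of BAX, which starts upstream of the RefSeq start. MYC itself had a log2 fold change of -0.08 (standard error 0.05, edgeR adjusted p = 0.102).

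Among the BH3-only genes, PMAIP1 and BBC3 rose and BID and BCL2L11 did not pass. PMAIP1 (ENSG00000141682, chromosome 18 from 59899996 to 59904305, plus strand), which encodes NOXA, had 627, 662 and 730 reads with shNC against 974, 918 and 1035 with shNUF2. Its levels were tight within each group, at 19.8 ± 0.526 FPKM with shNC (SD, n = 3) and 31.9 ± 0.658 FPKM with shNUF2 (SD, n = 3). It rose by 0.73 on the log2 scale (standard error 0.06, edgeR adjusted p = 5.08e-11).

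BBC3 (ENSG00000105327, chromosome 19 from 47220822 to 47232766, minus strand), which encodes PUMA, had 301, 303 and 420 reads with shNC against 429, 339 and 362 with shNUF2. In FPKM these were 6.70, 6.06 and 7.76 against 9.76, 8.15 and 7.46. The highest shNC library, replicate 3, lay above the lowest shNUF2 library, replicate 3, so that the groups overlapped. The log2 fold change was 0.34 (standard error 0.11, edgeR adjusted p = 0.00721). It was 0.25 without shNC replicate 2 (edgeR adjusted p = 0.0591) and 0.22 without shNUF2 replicate 1 (edgeR adjusted p = 0.0998), and the call was lost in both. The annotation places the microRNA genes MIR3190 and MIR3191 on exon positions of BBC3.

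BID (ENSG00000015475, chromosome 22 from 17734138 to 17774770, minus strand), the BH3-only protein that caspase-8 cleaves, differed little between any of the libraries. Its reads were 442, 487 and 529 against 446, 403 and 484, or 7.08, 7.02 and 7.04 FPKM against 7.31, 6.98 and 7.19 FPKM. Its log2 fold change was 0.06 with a 95% interval of -0.093 to 0.215 (edgeR adjusted p = 0.499).

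BCL2L11 (ENSG00000153094, chromosome 2 from 111119378 to 111168445, plus strand), which encodes BIM, is a known target of FOXO factors. Its reads were 665, 796 and 818 against 663, 672 and 644, or 7.08, 7.62 and 7.23 FPKM against 7.22, 7.73 and 6.35 FPKM. The log2 fold change was -0.01 with a 95% interval of -0.148 to 0.133 (edgeR adjusted p = 0.933), and its sign changed with the processing. The deposited span of BCL2L11 overlaps that of ACOXL on the same strand, and ACOXL had at most 60 reads in any library. GENCODE release 29 lists 17 coding transcripts of BCL2L11, which are counted together here.

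Short windows show the FOXO and AP-1 motif matches found among the BH3-only genes, with the motif in capitals. The FOXO motif GTAAACA lay in BCL2L11 (GRCh38.p14, chr2:111120680-111120708, plus strand), and the AP-1 motif TGANTCA lay in BBC3 (GRCh38.p14, chr19:47232763-47232791, minus strand).
BCL2L11: gagttactccgGTAAACAcgccagggacg
BBC3: gcactggaaggTGAGTCActctggtgagg
Both strands were searched, and 3.41% of all promoter windows held the FOXO motif and 7.76% the AP-1 motif. Each motif was found in 1 of the 9 members with a window. BBC3 also held 1 E-box.

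**Figure D2:**
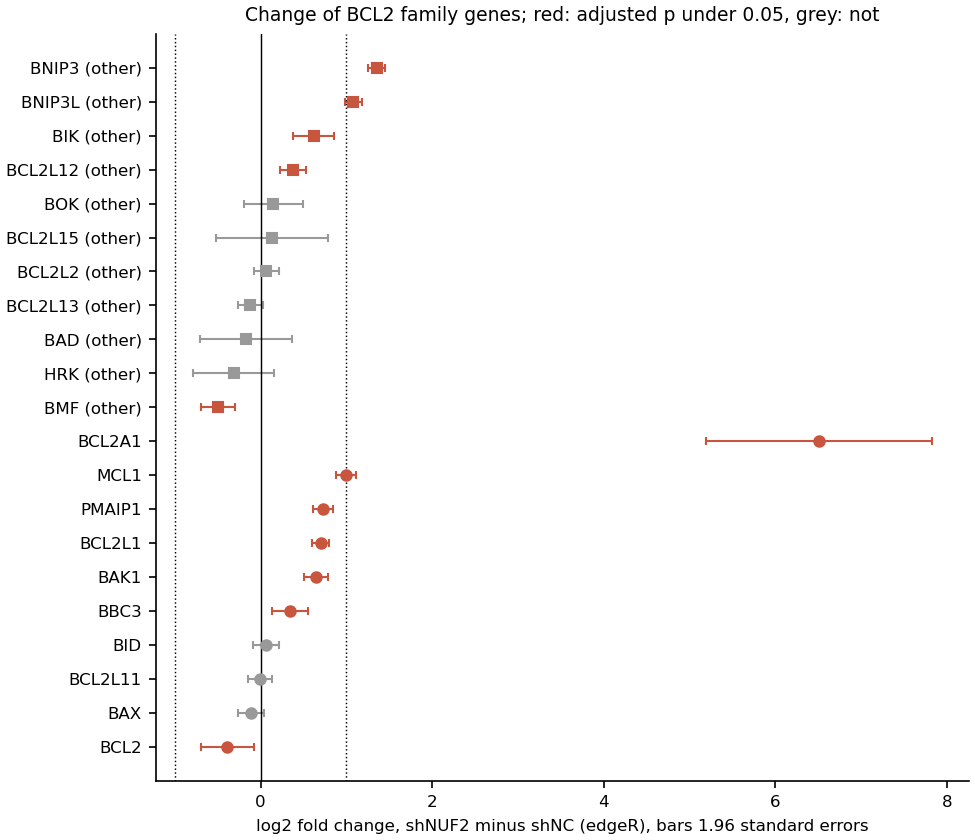
Log2 fold change (horizontal axis, shNUF2 minus shNC, edgeR) of the 10 members (circles) and 11 other BCL2 family genes (squares, marked as other), with bars for the 95% interval, red where the adjusted p is under 0.05 and grey where it is not, and dotted lines at -1 and 1. BCL2A1 at 6.51 lies far from the other members, which lie between -0.39 and 0.99.

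Per length, the family spanned a wide range and its order was nearly the same in both groups. MCL1 was the most abundant transcript, with a median of 149.5 FPKM with shNC and 309 FPKM with shNUF2. PMAIP1, BCL2L1 and BAK1 followed at 18.3 to 21.2 FPKM with shNC and 27.2 to 32.3 FPKM with shNUF2, and neighbours in this trio overlapped in both groups. BAX came next in both groups and overlapped with neither neighbour. BCL2L11, BID and BBC3 lay between 6.06 and 7.76 FPKM with shNC and between 6.35 and 9.76 FPKM with shNUF2, and did not differ beyond their spread from their neighbours in that group of genes. At the bottom, BCL2 lay above BCL2A1 in every shNC library and below it in every shNUF2 library.

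Summed over the 4 survival genes, the level was 195, 166 and 170 FPKM with shNC and 357, 318 and 340 FPKM with shNUF2. MCL1 provided 88.1% to 89.8% of this sum with shNC and 88.6% to 90.9% with shNUF2. The share of BCL2 was 0.390% ± 0.0644 with shNC and 0.150% ± 0.0137 with shNUF2 (SD, n = 3 each), without overlap. This share also fell because the sum rose with MCL1. BCL2 itself was at 0.683 ± 0.0576 FPKM with shNC and 0.508 ± 0.0489 FPKM with shNUF2 (SD, n = 3 each). BCL2A1 provided 0.613% to 1.09% of the sum with shNUF2. These sums and shares are descriptions without a test.

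Summed over the 4 BH3-only genes, the level was 41.2, 40.0 and 41.7 FPKM with shNC and 56.6, 55.0 and 52.1 FPKM with shNUF2. PMAIP1 provided 47.1% to 49.4% of it with shNC and 57.1% to 59.7% with shNUF2. The ratio of the survival sum to the BH3-only sum was 4.74, 4.15 and 4.07 with shNC and 6.30, 5.79 and 6.53 with shNUF2. Leaving MCL1 out, whose deposited span differs from the annotation, this ratio was 0.484 ± 0.00142 with shNC and 0.614 ± 0.0419 with shNUF2 (SD, n = 3 each), and the groups did not overlap. For PMAIP1 and its partner MCL1, the FPKM of PMAIP1 was 11.6%, 13.1% and 13.2% of that of MCL1 with shNC and 9.96%, 11.4% and 10.1% with shNUF2. Both transcripts rose, and MCL1 by the larger factor.

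**Figure D3:**
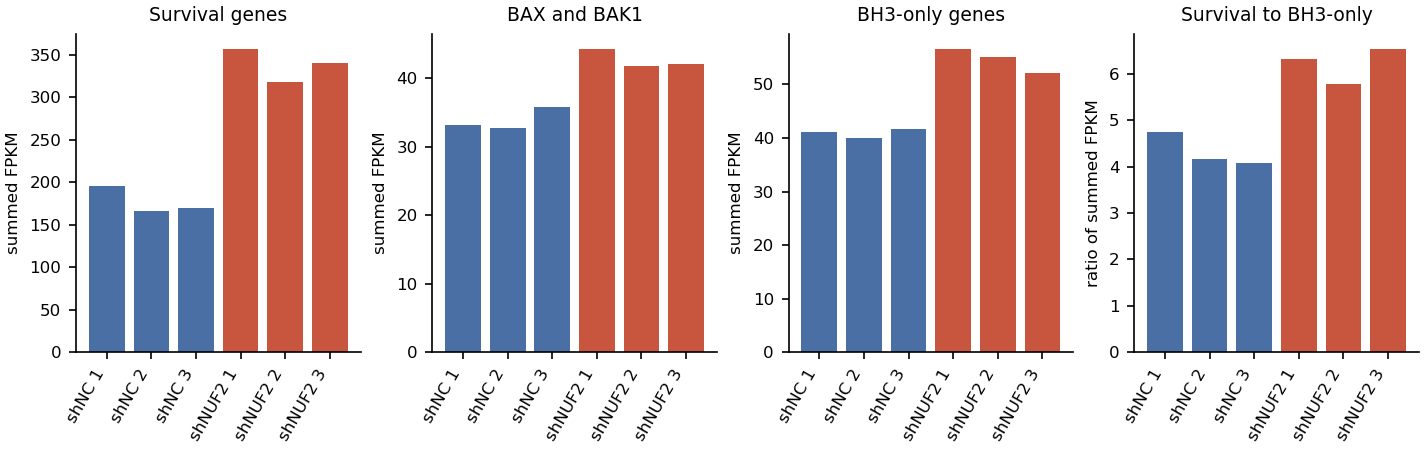
Summed FPKM (bars from 0) of the 4 survival genes, of BAX and BAK1 and of the 4 BH3-only genes, and the ratio of the survival to the BH3-only sum, in each of the 6 libraries. All 4 quantities are higher in each shNUF2 library than in each shNC library, with a ratio of 4.07 to 4.74 with shNC and 5.79 to 6.53 with shNUF2.

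Of 13 other genes of the family, 11 were tested, 4 rose and 1 fell, against 33.9% and 33.8% of all genes tested. The 11 genes had a median log2 fold change of 0.132. BNIP3 and BNIP3L, mitophagy receptors that are induced by hypoxia, rose past the study's thresholds, with log2 fold changes of 1.35 (standard error 0.05) and 1.08 (0.05). BNIP3 was at 34.6 ± 2.64 FPKM with shNC and 86.1 ± 3.18 FPKM with shNUF2, and BNIP3L at 110 ± 8.99 and 226 ± 9.45 FPKM (SD, n = 3 each). Among the BH3-only genes, BIK rose by 0.62 on the log2 scale (0.12, edgeR adjusted p = 7.9e-05) and BMF fell by 0.50 (0.10, edgeR adjusted p = 1.04e-04), without overlap of the groups in either. BCL2L12 rose by 0.38 (0.08, edgeR adjusted p = 1.57e-04).

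The survival gene BCL2L2, which encodes BCL-W, had 8.58 to 9.40 FPKM with shNC and 8.45 to 10.1 FPKM with shNUF2 and did not pass the test (log2 fold change 0.07, edgeR adjusted p = 0.432). The effector relative BOK, the BH3-only genes BAD and HRK, and BCL2L13 and BCL2L15 did not pass either, with log2 fold changes from -0.31 to 0.15. BCL2L10 and BCL2L14 had at most 10 reads in any library and were not tested.

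Downstream of the family, cytochrome c and APAF1 form the apoptosome that activates caspase-9, and inhibitor of apoptosis (IAP) proteins restrain the caspases. Of 27 genes of these steps, all tested, 9 rose and 8 fell, and 10 did not pass. Among all genes tested, 33.9% rose and 33.8% fell. The 27 genes had a median log2 fold change of -0.076. The largest increases included those of BIRC7, an IAP (1.46, standard error 0.05), and BIRC3, an IAP and NF-kB target (1.03, 0.05). BIRC7 was at 52.6 ± 3.68 FPKM with shNC and 141 ± 4.60 FPKM with shNUF2 (SD, n = 3 each), and BIRC3 at 22.1 ± 1.50 and 43.9 ± 2.50 FPKM. The 3 largest decreases were those of ENDOG, a mitochondrial nuclease (-0.91, 0.28), CASP6, an executioner caspase (-0.87, 0.15), and CASP9, the initiator caspase of the apoptosome (-0.75, 0.07). CASP9 went from 12.1 ± 0.480 to 7.02 ± 0.600 FPKM. The decrease of ENDOG was -0.47 without shNC replicate 3 and no longer passed (edgeR adjusted p = 0.162).

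**Figure D4:**
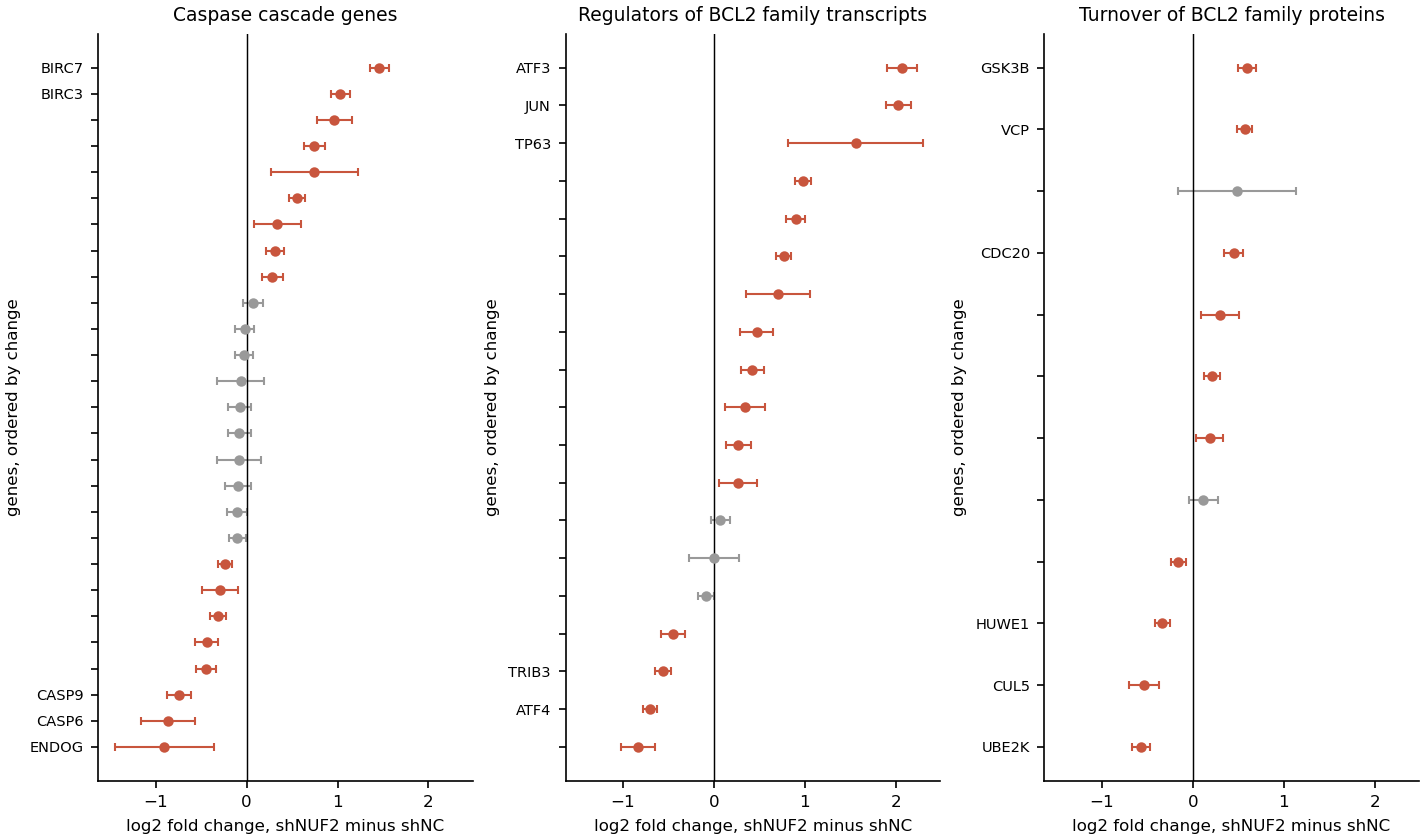
Log2 fold change (horizontal axes, shNUF2 minus shNC, edgeR) with bars for the 95% interval of the tested genes of 3 lists, ordered by change, with names for the genes given in the text, red where the adjusted p is under 0.05 and grey where it is not. The caspase cascade genes lie on both sides of 0, with 9 higher and 8 lower, and 12 of the 19 regulators of BCL2 family transcripts are higher. Of all genes tested, 33.9% are higher and 33.8% lower.

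Of 19 genes for transcription regulators known to act on BCL2 family genes, all tested, 12 rose and 4 fell. Over all genes tested, 33.9% rose and 33.8% fell. The 19 genes had a median log2 fold change of 0.341. The largest increases were those of ATF3, a stress factor (2.07, standard error 0.09), JUN, an AP-1 subunit (2.03, 0.07), and TP63, a transcription factor of epithelia (1.56, 0.38). TP63 had only 15, 13 and 6 reads with shNC against 30, 27 and 32 with shNUF2, and its log2 fold change was 0.22 with limma on log2(FPKM + 1). The largest decreases included those of ATF4, which activates PMAIP1 under stress (-0.70, 0.04), and TRIB3, an ATF4 and CHOP target (-0.56, 0.05). ATF4 went from 124 ± 1.61 to 74.2 ± 1.54 FPKM (SD, n = 3 each).

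Of 14 genes for enzymes that act on the stability of BCL2 family proteins, 12 were tested, 6 rose and 4 fell. The shares over all genes tested were 33.9% and 33.8%. These 12 genes had a median log2 fold change of 0.196. None of them passed the study's thresholds, against 13.6% of all genes tested. HUWE1, a ubiquitin ligase of MCL1, fell by 0.34 on the log2 scale (standard error 0.04), UBE2K, a ubiquitin-conjugating enzyme, by 0.57 (0.05) and CUL5, a cullin of ligase complexes, by 0.54 (0.09). GSK3B, a kinase that marks MCL1 for degradation, rose by 0.59 (0.05), VCP, a segregase of ubiquitinated proteins, by 0.57 (0.04) and CDC20, an activator of the anaphase-promoting complex, by 0.45 (0.05). The largest adjusted p of these 6 genes was 4.37e-06, for CUL5 (edgeR).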

How the data were processed

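The authors prepared strand-specific mRNA libraries, sequenced them on an Illumina NovaSeq instrument and deposited raw read counts per gene. The deposited FPKM values equal the count divided by the deposited gene length and by the library's counted reads, up to the usual constants. The submitters' processing notes name cutadapt, HISAT and HTSeq with GRCh38.p13. Versions, settings and the strand option are not given in the sources used here, so that reads shared by overlapping or near-identical genes may have been dropped or split. The 12874 genes kept by filterByExpr were normalized by TMM and compared by edgeR's quasi-likelihood test (edgeR 4.0.16, R 4.3.3) in one fit of 6 libraries without covariates. The p-values of all tested genes were adjusted by the method of Benjamini and Hochberg. Each standard error was obtained from the log2 fold change and its F statistic, and the 95% intervals are normal intervals from it.

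The genes and lists were chosen with earlier results of these data known. The genes named are the members, the other family genes, the 3 largest increases and 3 largest decreases of 3 lists among genes with an adjusted p under 0.05, and genes overlapping a member. Some genes that the rule selects are not reported here. The markers, MYC and the search for TATAAA fall outside this rule and were named after their values were seen. Libraries of a group differed by more than counting noise, with a chi-square per degree of freedom of 2.64 to 4.38 between pairs. Alternatives were DESeq2 1.42.0, limma 3.58.1 on log2 FPKM with pseudocounts of 1 and 0.1, other scalings and filters, the replicate block, libraries left out and edgeR's TREAT test. On simulated counts with 200 of 12874 genes changed, edgeR recovered 100 of 100 genes at a log2 change of 1 and called 11 unchanged genes. The changed genes were drawn only from genes above a minimum count, with log2 changes of 1 or 2. The simulation thus does not show how smaller changes or genes with few reads are recovered. Promoters are from RefSeq, with 9 of 10 members matched, and UTRs from GENCODE release 29. Python 3.11.15 and scipy 1.17.1 were used.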

Additional observations from a re-analysis of the deposited data

How the results depend on the processing

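Few reads limit the precision for BCL2A1 and BCL2 among the members and for genes such as TP63, BCL2L15, BAD, HRK and ENDOG outside them, and the cause of the changes listed here was not tested. Among the 10 members, BCL2 was lower in each alternative and missed the threshold with DESeq2's Wald test (-0.38) and limma on log2(FPKM + 0.1) (-0.37), and ranged from -0.47 to -0.33 with a library left out. With a library left out, BAX ranged from -0.1908 to -0.0738, BBC3 from 0.22 to 0.44 and BCL2L11 from -0.0659 to 0.0688. BCL2L11, near 0 throughout, changed sign with DESeq2's size factors (0.0008), the Wald test (0.0016), a stricter filter that asks for 1 CPM or more in each library (0.0147) and without shNC replicate 2 (0.0183) or shNUF2 replicate 3 (0.0688). BCL2L15 changed sign without shNC replicate 1 (-0.0618) or shNUF2 replicate 3 (-0.0211), BOK without shNC replicate 2 (-0.0139) or shNUF2 replicate 2 (-0.0385), and BAD without shNC replicate 3 (0.0556), none of them called. With a library left out, BCL2L15 ranged up to 0.272, BOK up to 0.2828 and BAD down to -0.3302.

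The number of members called lower was 0 with the Wald test and with limma on log2(FPKM + 0.1), and 0 to 1 with a library left out, and the number called higher was 5 to 6 with a library left out. Past the study's thresholds, 2 members were higher with DESeq2's size factors and with its Wald test, and 1 to 2 with a library left out. TREAT called 1 member beyond a log2 change of 1. The stricter filter removed BCL2A1.

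Over all genes, 756 were higher past the study's thresholds with that filter, and limma on log2(FPKM + 1) called 430 higher and 206 lower, against 1212 and 536. With a library left out, 1 to 2 other family genes were lower. Caspase cascade genes past the study's thresholds numbered 1 higher with library totals only and with either limma setting, and 1 to 3 higher and 0 to 1 lower with a library left out. Identity markers past them numbered 0 with either limma setting. Markers of other cell types that were higher numbered 6 at either threshold without the filter on low counts, 0 past the study's thresholds with limma on log2(FPKM + 1), and 3 to 5 at either threshold with a library left out.

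With the replicate number as a block, BCL2 had an adjusted p of 0.0356 in edgeR's test and MCL1 a log2 fold change of 0.9964, and no call of a member changed. The labels give both groups the numbers 1 to 3, but same-numbered libraries shared no deviation (correlations across genes of 0.020, 0.005 and -0.030), and 2 of the 6 libraries correlated best with their own number.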

Other observations

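Ranked by median FPKM among the 19973 genes of the table, MCL1 stood at rank 164 with shNC and at rank 74 with shNUF2. PMAIP1 moved from rank 2310 to 1271, BCL2L1 from 2340 to 1405 and BAK1 from 2420 to 1420, whereas BAX moved from 3201 to 3623 and BCL2 from 11131 to 11730. BID moved from 5810 to 5623 and BCL2L11 from 5701 to 5609, the smallest shifts after that of MCL1.

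Set against the log2 fold changes of all genes tested, MCL1 exceeded 90.5% of them, PMAIP1 85.9%, BCL2L1 85.3%, BAK1 83.9% and BBC3 71.9%, BID and BCL2L11 lay near the middle at 55.0% and 50.4%, and BCL2 exceeded 23.3%.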
